A study of Homo sapiens with 18 samples.

Results

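The comparison described here sets SKOV-3-AA against SKOV-3-EV cells, both exposed to cisplatin, and uses 6 of the 18 arrays of the series. Its members were chosen by their labels: the 3 arrays of PEA-15AA-transfected cells and the 3 arrays of vector-transfected cells that had received 15 µM cisplatin for 24 h. SKOV-3 is a human ovarian carcinoma cell line. Cells carried the empty vector (SKOV-3-EV), PEA-15AA, which cannot be phosphorylated (SKOV-3-AA), or the phosphomimetic PEA-15DD (SKOV-3-DD). Each transfection was also cultured without cisplatin, which gives 6 groups of 3 Clariom S arrays, and all cells of the comparison share the plasmid backbone, the transfection and the drug. The plasmids were introduced transiently with liposomes a day before cisplatin was added, into 1 cell line, so cells that took up the plasmid and cells that did not were measured together. The labels number the replicates and do not say whether they were separate cultures, so the p-values measure the spread between these arrays, which may be technical. The untreated vector arrays carry both the words medium and cis in their titles, and were taken as untreated from their treatment label.

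PEA-15 is a small adaptor protein with a death effector domain. It binds ERK1/2 and holds these kinases in the cytoplasm, and it also takes part in death receptor signalling through FADD and caspase-8. Phosphorylation at its serines decides between these partners: the form that cannot be phosphorylated keeps ERK1/2 bound, whereas the phosphorylated form turns to FADD. Cisplatin forms DNA crosslinks that stall replication forks and RNA polymerases, and cells answer with checkpoint, repair, stress and death programmes.

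Signals are given on the log2 scale as deposited, and a difference of 1 is a change of 2-fold. Differences are SKOV-3-AA minus SKOV-3-EV, with the standard error (SE) of the limma fit over all 18 arrays. Of 21448 probe sets tested, 17709 were paired with 1 gene symbol. The 6 arrays had similar medians, 6.39 ± 0.02 with PEA-15AA and 6.38 ± 0.02 with the vector (SD, n = 3), and pairs of arrays correlated between 0.9928 and 0.9941 across the groups, 0.9957 and 0.996 within SKOV-3-AA and 0.9926 and 0.9952 within SKOV-3-EV. SKOV-3-EV replicate 3 lay farthest from its group mean, and SKOV-3-DD replicates 2 and 3, which affect the compared groups only through the shared estimate of the spread, lay farther still. The 90th percentile of the 612 negative control features ran from 5.92 to 6.20 in these arrays, and it averaged 5.96 ± 0.05 with PEA-15AA and 6.14 ± 0.07 with the vector. A single gene near this level cannot be told from background. Of the ovarian carcinoma and epithelial markers, 9 of 10 lay above it in both groups and CDH1 did not. The same held for 0 of 6 endothelial markers, for 2 of 7 fibroblast markers (COL1A1 and COL1A2) and for 2 of 9 leukocyte markers (PTPRC and CD79A). The mean log2 signal of the leukocyte markers was 5.07 ± 0.07 with PEA-15AA and 5.27 ± 0.04 with the vector, and that of the fibroblast markers 5.75 ± 0.04 and 5.89 ± 0.10, while their summed linear signals overlapped between the groups (leukocyte 1005 to 1309 against 1144 to 1268, fibroblast 2673 to 3413 against 2387 to 3501). The part of these shifts in the results below was not tested.

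The question of this comparison is how the transcriptome of cisplatin-treated cells differs when PEA-15AA is present. By the study's own criteria, which ask for 2-fold or more with an unadjusted p under 0.05, 30 probe sets differed (0.14% of those tested), 23 higher (0.107%) and 7 lower (0.0326%) in SKOV-3-AA cells. Without the fold limit 2671 probe sets, 12.5%, had an unadjusted p under 0.05, with 1404 higher (6.55%) and 1267 lower (5.91%). The share was 7.79% with only the 9 cisplatin arrays in the model, and 3.09% for the same comparison in untreated cells. Genes on the same arrays vary together, so setting this share against a nominal 5% is no test. After Benjamini-Hochberg adjustment over all probe sets limma called 0, and the lowest adjusted p was 0.0912. Single genes are therefore described by their values and their adjusted p from limma. A gene is counted as higher or lower where its unadjusted p was under 0.05, which is a description and not a call. The 3 and 3 arrays did not overlap, with SKOV-3-AA higher, in 10.4% of all probe sets and, with SKOV-3-AA lower, in 8.34%. Most differences were small: the middle 90% of all probe sets lay between -0.42 and 0.43, and the median SE was 0.18. The 2-fold count and its balance depended on single arrays. It was 53, with 29 higher and 24 lower, when replicate 3 of SKOV-3-AA was left out, and 67, with 49 higher and 18 lower, when replicate 3 of SKOV-3-EV was. It was 45 (28 and 17), 43 (24 and 19) and 40 (25 and 15) without SKOV-3-AA replicate 2, SKOV-3-EV replicate 2 and SKOV-3-EV replicate 1.

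PEA15 itself is the gene that the transfected plasmid carries. In SKOV-3-EV cells under cisplatin its signal was 10.95, 11.07 and 11.51, and in SKOV-3-AA cells it was 9.99, 10.22 and 10.42. All 3 SKOV-3-AA arrays lay below all 3 SKOV-3-EV arrays, a difference of -0.97 (SE 0.43, adjusted p = 0.367). The SKOV-3-AA arrays thus showed no higher PEA15 signal than the vector arrays. The sources used here do not say whether the probes match the plasmid's PEA-15 sequence, so this probe set does not serve as a check of the labels. Without cisplatin the difference was -0.33. The SKOV-3-DD arrays were spread more widely, at 10.53, 10.73 and 11.63 under cisplatin and at 9.59, 10.48 and 12.21 without it, and in each treatment replicate 3 lay above every vector array. Its unadjusted p was under 0.05 with all arrays, and also when replicate 3 of SKOV-3-AA or replicate 1 of SKOV-3-EV was left out. It was above 0.05 when any of the other 4 arrays was left out, and the difference then ran between -1.02 and -0.80.

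**Figure D1:**
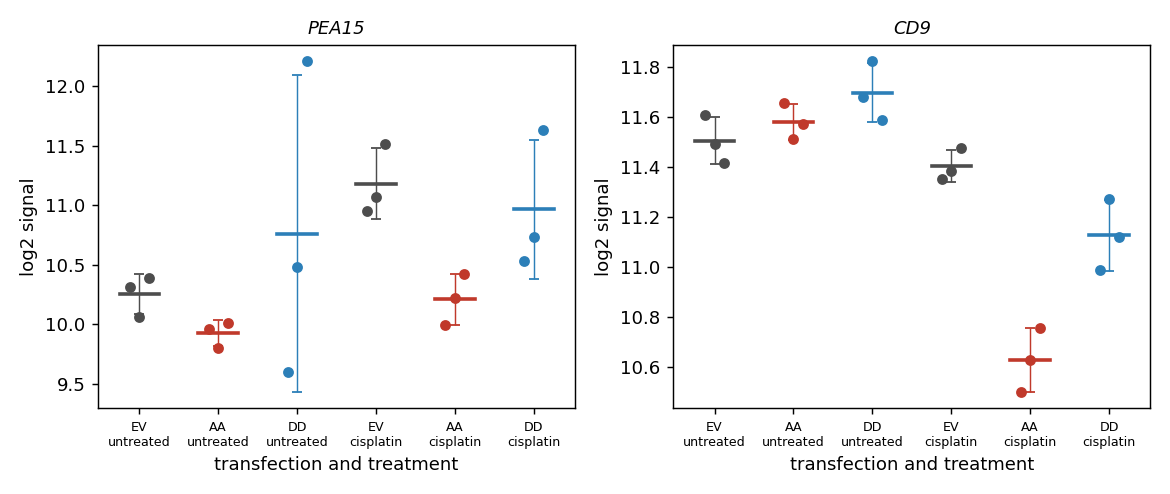
Log2 signal of PEA15 (left) and CD9 (right) in all 18 arrays, by transfection and treatment; points are arrays, thick lines group means and bars the SD (n = 3). In both genes the 3 SKOV-3-AA arrays under cisplatin lie below the 3 SKOV-3-EV arrays under cisplatin, at 9.99 to 10.42 against 10.95 to 11.51 and at 10.50 to 10.76 against 11.35 to 11.48.

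CD9, a tetraspanin of the cell surface that organises integrins and other membrane proteins, had the lowest p of all probe sets. Its signal was 11.35, 11.38 and 11.48 in SKOV-3-EV and 10.50, 10.63 and 10.76 in SKOV-3-AA cells. The groups were far apart beside their spread, with a difference of -0.78 (SE 0.12, adjusted p = 0.0912). In untreated cells the difference was 0.07 (SE 0.12). CD9 went from 11.58 to 10.63 on average with cisplatin in SKOV-3-AA cells and from 11.50 to 11.40 in SKOV-3-EV cells. The SKOV-3-DD arrays under cisplatin read 10.99, 11.27 and 11.12, between the other groups.

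Among the genes with the 12 largest differences in each direction, those higher in SKOV-3-AA cells included signalling kinases, a neurotrophin and a BMP inhibitor. GCNT2, a glycosyltransferase that branches glycan chains, read 5.36, 5.39 and 5.66 in SKOV-3-EV and 7.05, 6.92 and 6.44 in SKOV-3-AA cells, a difference of 1.34 (SE 0.32, adjusted p = 0.147). BDNF, the brain-derived neurotrophic factor, read 6.93, 7.89 and 7.21 against 8.64, 8.66 and 8.65, a difference of 1.31 (SE 0.35, adjusted p = 0.161). The SKOV-3-AA arrays of BDNF agreed closely with each other while those of SKOV-3-EV were spread over almost 1 log2 unit. NECTIN1, an adhesion molecule of adherens junctions, read 8.26, 7.28 and 7.86 against 9.06, 8.93 and 9.09, a difference of 1.23 (SE 0.28, adjusted p = 0.125). SMAD6, an inhibitor of BMP signalling, read 5.35, 5.75 and 5.29 against 6.78, 6.85 and 6.30, a difference of 1.18 (SE 0.27, adjusted p = 0.141). The kinase genes in this set were MAP3K1, an upstream kinase of JNK and ERK pathways (1.15), FRK, a Src-related tyrosine kinase (1.14), IRAK2, which relays signals of interleukin-1 and Toll-like receptors (1.10), and PRKD2, protein kinase D2 (1.05). The cell cycle transcription factor E2F2 differed by 1.09, ZNF772 by 1.21, ARL14EPL by 1.17 and AVPI1 by 1.10. The SKOV-3-EV means of 5 of the 12, GCNT2, SMAD6, MAP3K1, IRAK2 and PRKD2, lay below the 90th percentile of the negative controls in that group, and a fold change from that level is uncertain.

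Of these 12 genes, 9 were lower under cisplatin than without it in SKOV-3-EV cells. BDNF, for example, differed between cisplatin and no drug by -1.70 in vector cells and by 0.10 with PEA-15AA. NECTIN1 differed by -2.30 and -0.85, and GCNT2 by -2.95 and -1.59. The SKOV-3-DD minus SKOV-3-EV difference under cisplatin was also above 0 in all 12. It was 0.98 for SMAD6, 0.98 for FRK and 0.96 for NECTIN1, and 0.18 for E2F2. These 12 genes were chosen on the treated vector arrays that also enter their drug response and the SKOV-3-DD difference, so these values are a description.

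The 12 genes lower in SKOV-3-AA cells included enzymes, a zinc transporter and scaffold proteins of cell junctions. SCEL, sciellin, a protein of the cornified envelope of epithelia, showed the largest difference: 10.07, 9.79 and 8.80 in SKOV-3-EV against 8.29, 7.76 and 8.42 in SKOV-3-AA cells, or -1.40 (SE 0.34, adjusted p = 0.146). ADK, adenosine kinase, read 9.14, 9.18 and 8.50 against 7.70, 7.91 and 8.10, a difference of -1.04 (SE 0.23, adjusted p = 0.125). SLC39A11, a zinc transporter, read 6.80, 7.25 and 6.92 against 5.63, 5.85 and 6.38, a difference of -1.04 (SE 0.20, adjusted p = 0.113). The SKOV-3-AA mean of SLC39A11 lay just below the negative control level of its group. In both SCEL and ADK, SKOV-3-EV replicate 3 was the array nearest to the SKOV-3-AA values. The scaffold proteins CASK (-0.93) and PARD3, a regulator of cell polarity (-0.89), were lower as well. So were INPP5A, an inositol phosphatase (-0.94), COX7A1, a subunit of cytochrome c oxidase (-0.91), the peptidase TRHDE (-0.88), CMSS1 (-0.998), DTWD2 (-0.91) and QTMAN, a tRNA-modifying enzyme (-0.88). Here 10 of the 12 were lower with cisplatin in SKOV-3-EV cells too: ADK differed by -2.06 in SKOV-3-EV and -3.13 in SKOV-3-AA cells, and COX7A1 went the other way, at 4.35 and 3.67. The SKOV-3-DD minus SKOV-3-EV difference under cisplatin was below 0 in all 12, for example -0.68 for INPP5A and -0.11 for CASK. These genes too were chosen on the treated vector arrays that enter their drug response and the SKOV-3-DD difference. Both are therefore a description. Of the 24 genes of both directions, 23 kept an unadjusted p under 0.05 when any 1 of the 6 arrays was left out, and PEA15 did not. The genes were chosen on these same arrays for their p, separation and size, so this is partly built in and no independent check.

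**Figure D2:**
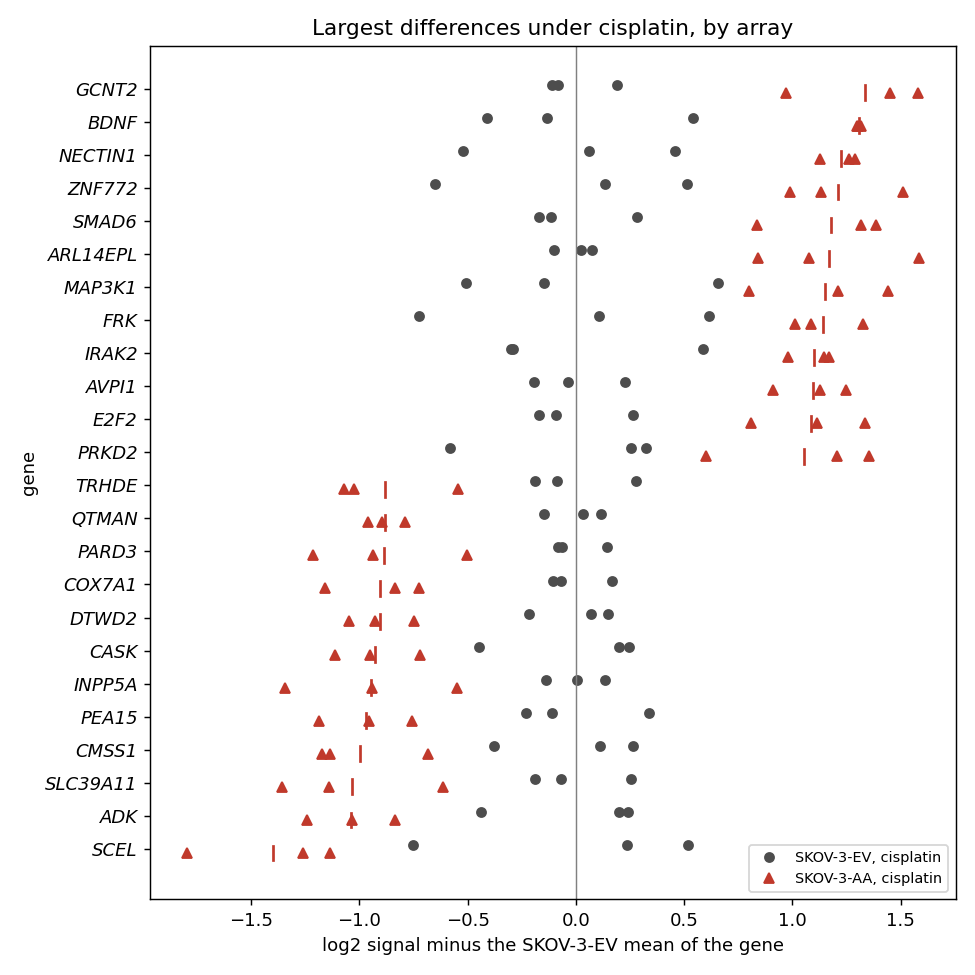
The 12 highest and 12 lowest genes under cisplatin; the x axis is the log2 signal of each array minus the SKOV-3-EV mean of that gene, with SKOV-3-EV arrays as circles, SKOV-3-AA arrays as triangles and the SKOV-3-AA mean as a red line. The arrays of both groups do not overlap in any of the 24 genes, which was a condition for their choice; differences run from 1.05 to 1.34 above and from -1.40 to -0.88 below.

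The other named genes past the 2-fold threshold, some of them dim or with overlapping arrays, were RCAN3 (1.06), CXXC5 (1.05), ABHD17C (1.04), LPCAT1 (1.04), ZNF324 (1.04), TGIF2 (1.03), AXIN2 (1.03) and DEDD2 (1.01) on the higher side, and FOXN3 (-1.17), PTPRG (-1.05) and PITPNC1 (-1.04) on the lower side. RCAN3, ABHD17C and AXIN2 in SKOV-3-EV cells, FOXN3 in SKOV-3-AA cells and PITPNC1 in both groups lay below the negative control level. DEDD2, a nuclear protein with a death effector domain like that of PEA-15, read 9.17, 8.93 and 8.56 in SKOV-3-EV and 10.15, 9.77 and 9.75 in SKOV-3-AA cells (adjusted p = 0.113). PTPRG, a receptor tyrosine phosphatase, read 8.11, 8.07 and 6.84 against 6.48, 6.89 and 6.50, and its SKOV-3-EV replicate 3 lay among the SKOV-3-AA values. ATG7, an enzyme needed to form autophagosomes, did not reach 2-fold but was among the most separated genes, at 9.39, 9.34 and 9.23 against 8.55, 8.71 and 8.61, a difference of -0.69 (SE 0.12, adjusted p = 0.113). EGFR, the receptor of epidermal growth factor, read 8.45, 8.07 and 8.57 against 7.29, 7.87 and 7.38, a difference of -0.85 (SE 0.22, adjusted p = 0.152), with no difference in untreated cells (0.00).

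Gene lists were read against the background shares of 6.55% of all probe sets higher and 5.91% lower at an unadjusted p under 0.05. When only the 10724 brighter probe sets were fitted, 11.6% were higher and 6.15% lower, with a median difference of 0.06. For lists of mostly bright genes this is the nearer background. The shares higher in the ERK-responsive, p53, NRF2, excision repair and stress response lists below lie closer to it. The median difference over all probe sets was 0.00, so higher and lower means were about equally frequent among them. Replication-dependent histone genes, which cells express during S phase to package new DNA, formed the list with the highest share: 17 of 49 measured members were higher (34.7%), 0 were lower, and the median was 0.26. A higher mean was seen in 46 of the 49. By histone type the counts were 3 of 5 for H1, 4 of 9 for H2A, 3 of 15 for H2B, 6 of 8 for H3 and 1 of 12 for H4. H2AC21 read 10.11, 10.15 and 10.55 in SKOV-3-EV and 10.93, 11.01 and 11.05 in SKOV-3-AA cells, a difference of 0.72 (SE 0.14, adjusted p = 0.113). H3C8 read 7.14, 7.17 and 7.45 against 7.94, 7.86 and 7.64, a difference of 0.56 (SE 0.20, adjusted p = 0.273). Histone genes have near-identical copies, so probe sets of this family may share signal and the members are not independent. The list's median difference between cisplatin and no drug was -1.36 in SKOV-3-EV and -1.05 in SKOV-3-AA cells. In untreated cells 0 of the 49 were higher (1.64% of all probe sets) and 1 was lower (1.45%). The count of 17 was 9 when replicate 3 of SKOV-3-AA was left out, 10 when replicate 1 of SKOV-3-EV was, and 11 when replicate 1 of SKOV-3-AA was.

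The promoters of H2AC21 and H3C8 are shown because histone genes were the list with the highest share. They were searched for the CCAAT and TATA boxes known from many histone promoters. Each is the 250 bases before the start of the gene in RefSeq (GRCh38.p14), 5′ to 3′, with CCAAT and TATAAA, searched on both strands, in capitals (H2AC21 chr1:149887966-149888215, minus strand; H3C8 chr6:26271414-26271663, minus strand).
H2AC21: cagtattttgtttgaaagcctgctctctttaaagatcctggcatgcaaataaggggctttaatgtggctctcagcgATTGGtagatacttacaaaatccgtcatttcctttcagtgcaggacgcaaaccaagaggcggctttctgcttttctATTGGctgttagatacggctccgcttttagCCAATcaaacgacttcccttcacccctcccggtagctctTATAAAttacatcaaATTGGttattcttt
H3C8: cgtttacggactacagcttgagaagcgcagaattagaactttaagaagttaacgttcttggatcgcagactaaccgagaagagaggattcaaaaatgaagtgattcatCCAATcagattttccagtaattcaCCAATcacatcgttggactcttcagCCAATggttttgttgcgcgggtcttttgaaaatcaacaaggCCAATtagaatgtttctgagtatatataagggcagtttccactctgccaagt
H2AC21 held 4 matches to CCAAT and 1 to TATAAA, and H3C8 held 4 and 0. Of the 45 measured histone genes with a promoter in that table, 38 held CCAAT and 32 held TATAAA, whereas 32.0% and 10.7% of all 35116 promoters did. Here and below, a listed gene was counted if any of its promoters matched, while all promoters were counted singly. The shares are therefore not fully alike. A match is a description of the letters and not of a site in use.

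Genes of the cell division cycle were shifted the same way. Of 30 G2/M genes 10 were higher and 0 lower, with a median of 0.26, and of 29 G1/S and replication genes 9 were higher and 0 lower, with a median of 0.20. NDC80, a kinetochore protein, read 10.23, 10.27 and 10.65 in SKOV-3-EV and 11.10, 10.87 and 10.85 in SKOV-3-AA cells, a difference of 0.56 (adjusted p = 0.226). DLGAP5, a spindle protein, differed by 0.50, NUSAP1 by 0.56 and the mitotic kinesin KIF11 by 0.56. The values of all 4 genes did not overlap between the groups, but each difference was below 1.5-fold in linear terms. In the G1/S list CDC6, which loads the replicative helicase at origins, read 13.24, 13.15 and 13.30 against 13.83, 13.88 and 13.56, a difference of 0.52 (SE 0.15, adjusted p = 0.182). Its partner in loading, CDT1, differed by 0.49, and the helicase subunit MCM4 by 0.37. Without cisplatin 0 genes of either list differed at that level, and their medians were 0.02 and 0.08. The G2/M count was 5 when replicate 2 of SKOV-3-AA was left out, and the G1/S count was 5 when replicate 2 of SKOV-3-EV was. CCAAT was found in 22 of the 26 G2/M genes with a promoter in the table.

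**Figure D3:**
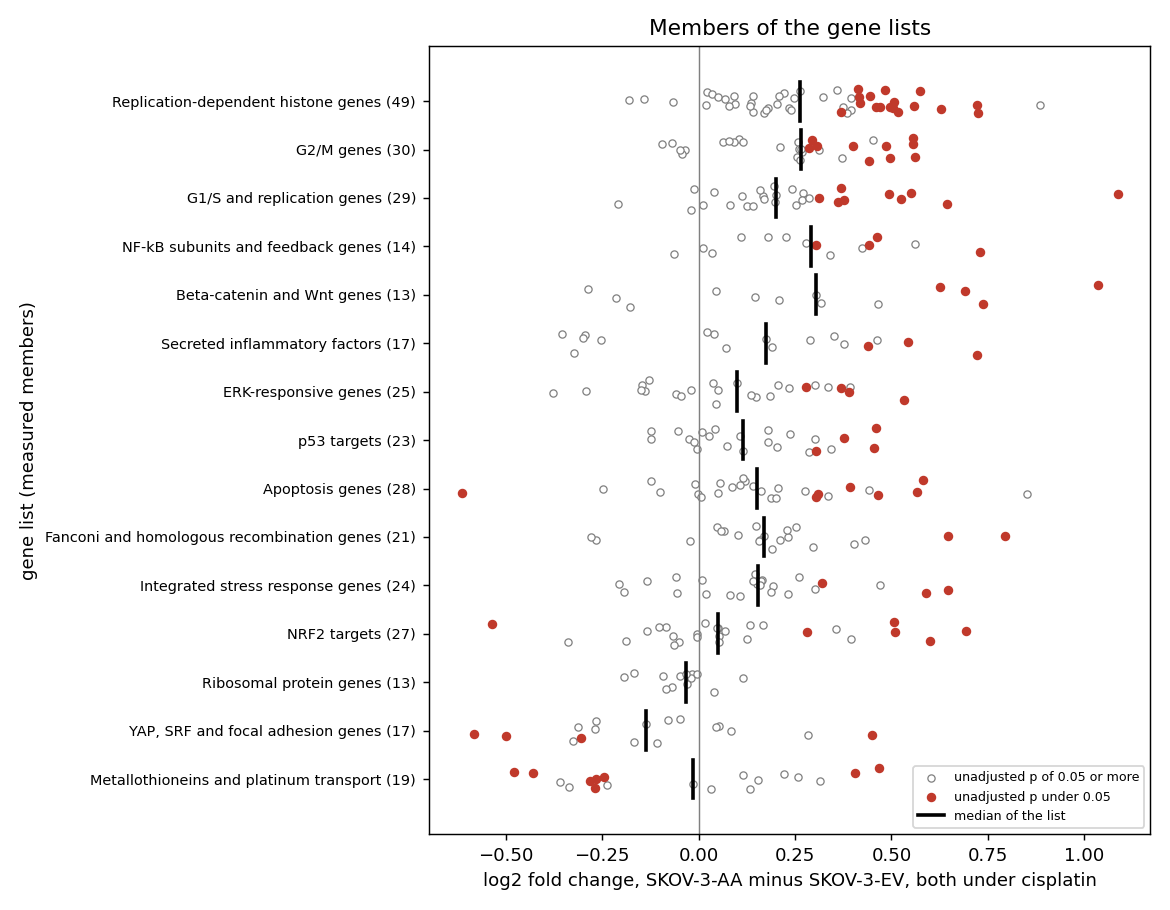
Log2 fold changes of the members of 15 gene lists; each point is a gene, filled where the unadjusted p is under 0.05, and the black bar is the list median. Histone, G2/M, G1/S, NF-kB and Wnt genes lie mostly to the right of 0, with medians of 0.20 to 0.31, and the metallothioneins form a tight cluster to the left.

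Of the 7 metallothionein genes measured, all averaged less signal with PEA-15AA. Metallothioneins are small cysteine-rich proteins that bind zinc and copper and can also bind platinum. The differences were narrow, from -0.43 to -0.25, and 5 of the 7 had an unadjusted p under 0.05. MT1F read 12.91, 12.97 and 12.91 in SKOV-3-EV and 12.54, 12.50 and 12.46 in SKOV-3-AA cells, a difference of -0.43 (SE 0.13, adjusted p = 0.226). MT2A, the brightest of them, read 17.03, 16.98 and 17.05 against 16.75, 16.77 and 16.80, a difference of -0.25 (SE 0.11, adjusted p = 0.37). The arrays of both groups were separate for these genes. In untreated cells the differences were 0.09 for MT1F and 0.05 for MT2A. The copper chaperone ATOX1 was lower too (-0.48, adjusted p = 0.284), and MTF1, the zinc-sensing factor that drives metallothionein transcription, was higher (0.41, adjusted p = 0.288). In the whole list of metallothioneins and platinum transport genes 6 of 19 were lower (31.6%) and 2 higher. The count of 6 was 2 when replicate 1 of SKOV-3-AA was left out, and 3 when replicate 1 or replicate 2 of SKOV-3-EV was. Metallothionein genes are close copies of each other, and their probe sets may share signal.

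Metallothionein promoters carry metal response elements, the binding sequence of MTF1, whose core is TGCNCNC (N is any base). The promoters of MT2A and MT1X are printed because both genes were lower while MTF1 was higher. They are the 250 bases before the RefSeq start, GRCh38.p14, with TGCNCNC on either strand and TATAAA in capitals (MT2A chr16:56608334-56608583, plus strand; MT1X chr16:56682220-56682469, plus strand).
MT2A: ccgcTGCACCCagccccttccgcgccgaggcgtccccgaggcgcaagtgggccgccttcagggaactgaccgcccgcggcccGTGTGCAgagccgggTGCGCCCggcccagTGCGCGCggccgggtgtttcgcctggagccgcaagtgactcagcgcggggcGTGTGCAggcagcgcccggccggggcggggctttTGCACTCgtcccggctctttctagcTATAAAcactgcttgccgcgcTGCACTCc
MT1X: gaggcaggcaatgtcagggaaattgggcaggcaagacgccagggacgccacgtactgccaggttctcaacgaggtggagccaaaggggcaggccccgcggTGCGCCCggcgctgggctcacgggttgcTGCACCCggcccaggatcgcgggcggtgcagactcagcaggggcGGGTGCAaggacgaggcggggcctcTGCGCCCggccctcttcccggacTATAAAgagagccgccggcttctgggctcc
MT2A held 7 matches to TGCNCNC and MT1X held 4, and each had 1 match to TATAAA. This short core is common: 49.1% of all promoters in the table held at least 1 match.

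Most NF-kB genes averaged more signal with PEA-15AA under cisplatin and less without it, in 10 of 14. The share of all probe sets with this pattern was not counted. Across all probe sets the treated and untreated differences were almost uncorrelated (Pearson 0.04), so opposite signs are common among them. NF-kB is a family of transcription factors that drives inflammatory genes and its own inhibitors. Under cisplatin 13 of 14 measured members averaged more signal with PEA-15AA, the median being 0.29, and 4 had an unadjusted p under 0.05 (28.6%). NFKB2, which encodes the p100 precursor, read 11.20, 11.16 and 11.90 in SKOV-3-EV and 12.18, 12.08 and 12.19 in SKOV-3-AA cells, a difference of 0.73 (SE 0.23, adjusted p = 0.232). The other members were the subunits RELA (0.46) and NFKB1 (0.30) and the inhibitor NFKBIE (0.44). SKOV-3-EV replicate 3 lay nearest to the SKOV-3-AA arrays for NFKB2, and without it 8 of the 14 had an unadjusted p under 0.05. In untreated cells 11 of 14 had a lower mean, 3 at an unadjusted p under 0.05 (1.45% of all probe sets), and none of these 3 was among the 4 above. The test of the change in the difference with cisplatin had an unadjusted p under 0.05 and a positive sign in 6 of 14 (3.1% of all probe sets), among them TNFAIP3, an NF-kB inhibitor and target, at 0.93 (adjusted p = 0.555), and NFKB2 at 1.21 (adjusted p = 0.555). The lowest adjusted p of that test over all probe sets was 0.555, and 0 probe sets passed.

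Of 17 secreted inflammatory factors, 11 also averaged more signal under cisplatin and less without it, again with no count over all probe sets. CXCL8, the neutrophil chemokine interleukin-8, read 13.10, 13.33 and 13.75 in SKOV-3-EV and 14.09, 13.84 and 13.87 in SKOV-3-AA cells under cisplatin, a difference of 0.54 (SE 0.21, adjusted p = 0.302). Untreated, the difference was -0.66, and the change between them was 1.20 (adjusted p = 0.555). CXCL3, a related chemokine, was at 0.72 under cisplatin and -0.34 untreated, and IL6, a cytokine, at 0.44 and -0.49. Of 17 measured members 3 were higher and 0 lower under cisplatin (17.6%), while 0 were higher and 5 lower in untreated cells. The change with cisplatin passed an unadjusted p of 0.05 upwards in 7 of 17 and downwards in 1, MMP3 (3.8% of all probe sets went down). Both cisplatin group means of MMP3 lay below the negative control level. The upward 7 included CXCL1, CXCL2, CCL20 and LIF besides the 3 genes above. MMP1 and MMP10, matrix proteases, averaged less signal with PEA-15AA in both treatments.

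ERK-responsive genes are of interest because PEA-15 binds ERK1/2. EGR1, an immediate early transcription factor induced by ERK, read 13.81, 13.49 and 13.71 in SKOV-3-EV and 13.28, 13.44 and 13.87 in SKOV-3-AA cells under cisplatin. The groups overlapped, with a difference of -0.15 (SE 0.23, adjusted p = 0.844). In untreated cells it was -1.20 (adjusted p = 0.594), and the change between the treatments was 1.06 (adjusted p = 0.571). Over the list 4 of 25 members were higher under cisplatin (16%): the transcription factors ETV5 (0.53) and EGR3 (0.39) and the feedback inhibitors SPRY4 (0.37) and DUSP4 (0.28). EGR3, however, read at most 4.75, below the negative control level, and the arrays of SPRY4 and DUSP4 overlapped between the groups. Without cisplatin 6 of 25 were lower and 0 higher. The change with cisplatin was upward in 8 of 25 at an unadjusted p under 0.05, and downward in 0.

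**Figure D4:**
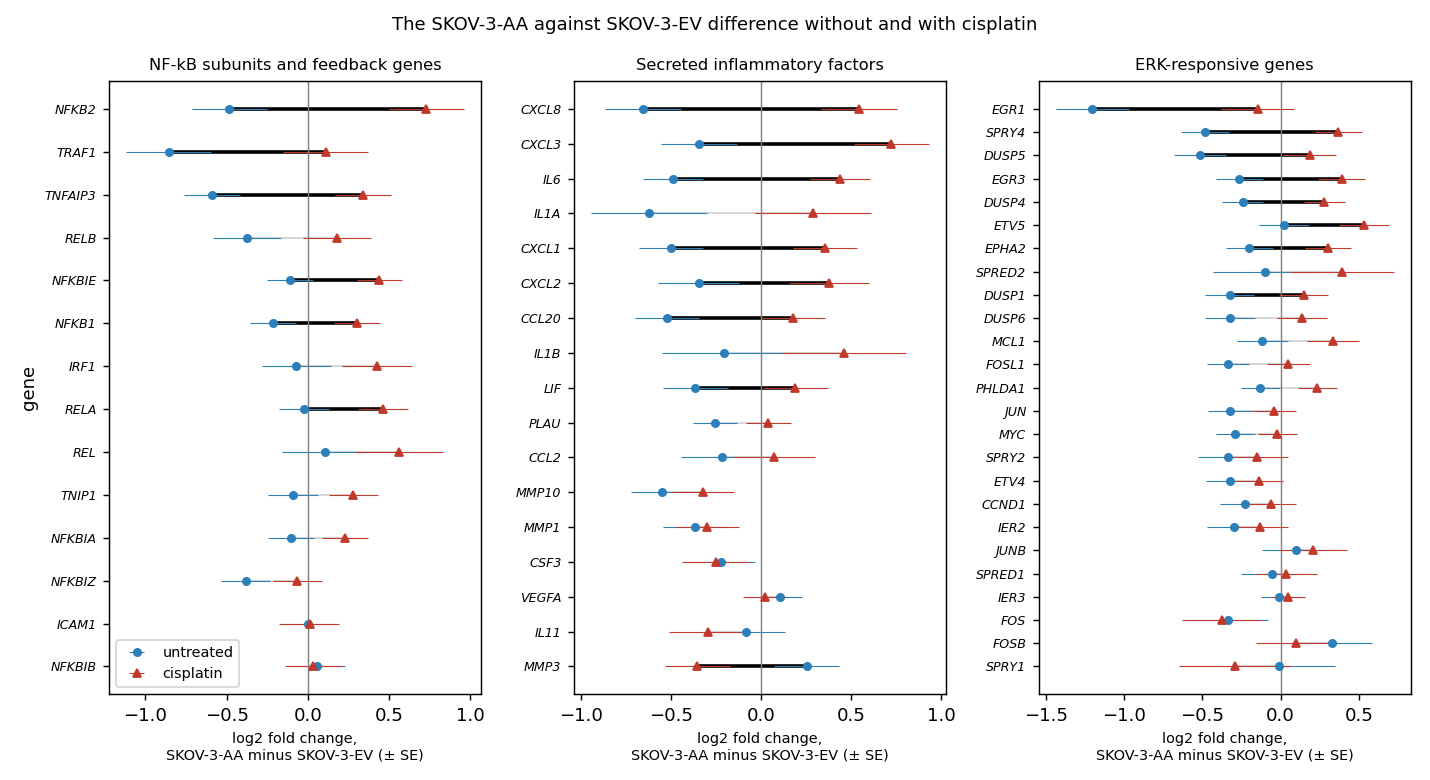
SKOV-3-AA minus SKOV-3-EV difference (log2, ± SE of the fit) in untreated (circles) and cisplatin-treated (triangles) cells for the genes of 3 lists; a black line joins values whose change has an unadjusted p under 0.05. In most genes the triangle lies to the right of the circle, as for NFKB2 (-0.48 to 0.73), CXCL8 (-0.66 to 0.54) and EGR1 (-1.20 to -0.15).

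CXCL3 and CXCL8 promoters are shown because their differences had opposite signs with and without the drug, although that of CXCL3 in untreated cells had an unadjusted p above 0.05, and both hold a sequence of the NF-kB type. The 250 bases before the RefSeq start (GRCh38.p14) have GGAATTTCC, searched on both strands, in capitals (CXCL3 chr4:74038690-74038939, minus strand; CXCL8 chr4:73740319-73740568, plus strand).
CXCL3: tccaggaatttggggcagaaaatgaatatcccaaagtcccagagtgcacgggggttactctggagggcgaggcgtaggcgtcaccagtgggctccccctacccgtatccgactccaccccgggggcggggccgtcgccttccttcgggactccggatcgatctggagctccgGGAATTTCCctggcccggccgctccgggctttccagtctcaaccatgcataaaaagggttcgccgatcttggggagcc
CXCL8: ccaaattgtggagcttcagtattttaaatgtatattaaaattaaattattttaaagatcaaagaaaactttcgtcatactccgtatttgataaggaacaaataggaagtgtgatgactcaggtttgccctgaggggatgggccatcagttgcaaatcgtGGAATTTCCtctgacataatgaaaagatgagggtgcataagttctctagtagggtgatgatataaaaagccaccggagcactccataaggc
Each held 1 match. Of the measured genes with a promoter in the table, 6 of 12 NF-kB genes and 4 of 11 secreted factors held GGAATTTCC in any of their promoters. Counted singly, 0.413% of all promoters did.

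Further lists held single genes of note. In the Wnt list 4 of 13 members were higher (30.8%) and 0 lower, and these were AXIN1 (0.74), AXIN2 (1.03), RNF43 (0.69) and ZNRF3 (0.63). All 4 encode inhibitors of Wnt signalling; AXIN1 and AXIN2 belong to the complex that degrades beta-catenin, and RNF43 and ZNRF3 remove Wnt receptors. AXIN1 read 7.98, 7.75 and 8.48 in SKOV-3-EV and 8.88, 9.06 and 8.48 in SKOV-3-AA cells, where the highest vector array met the lowest SKOV-3-AA array. The count was 2 when replicate 2 or 3 of SKOV-3-AA or replicate 2 of SKOV-3-EV was left out. The mean signal lay below the negative control level for AXIN2 in SKOV-3-EV cells and for RNF43 in both groups.

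NFE2L2, the gene of the oxidative stress factor Nrf2, and KEAP1, which targets Nrf2 for degradation, were both higher. NFE2L2 read 12.02, 12.16 and 12.07 in SKOV-3-EV and 12.72, 12.67 and 12.67 in SKOV-3-AA cells, a difference of 0.60 (SE 0.16, adjusted p = 0.163). KEAP1 read 11.85, 12.09 and 11.90 against 12.47, 12.59 and 12.31, a difference of 0.51 (SE 0.14, adjusted p = 0.169). In neither gene did the arrays overlap. Of 27 genes in the list 5 were higher (18.5%) and 1 lower, and the median was 0.05. GCLC, the catalytic subunit of glutathione synthesis (0.69), SRXN1 (0.51) and EPHX1 (0.28) were the other higher ones, and ME1, malic enzyme, was lower (-0.54). UGT1A genes, the glucuronidation enzymes that the study follows, were not analysed here. Of 13 other glucuronidation genes 1 was higher, the hexokinase HK2 (0.52), which is also in the glycolysis list, and 0 lower. UGT2B4, UGT2B10, UGT2B11, UGT2B15, UGT2B17 and UGT2B28 lay below the negative control level in both groups, so a difference in them could not be read.

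Apoptosis genes were higher in 6 of 28 (21.4%) and lower in 1, and they included proteins with opposite roles. BCL2L1, which encodes the survival protein BCL-XL, read 9.78, 9.72 and 9.66 in SKOV-3-EV and 10.10, 10.36 and 10.39 in SKOV-3-AA cells, a difference of 0.57 (SE 0.17, adjusted p = 0.212). The death-promoting genes BID (0.39), BCL2L11 (0.31) and APAF1 (0.58) and the TRAIL receptors TNFRSF10A (0.46) and TNFRSF10B (0.31) were higher as well, and HRK was lower (-0.61). Of 23 p53 targets 4 were higher and 0 lower, among them PPM1D (0.46), a phosphatase that switches off damage signalling, and MDM2 (0.46), which degrades p53. Repair genes showed FANCF (0.80) and RAD51D (0.65) among 21 Fanconi and recombination genes. The excision repair list had 4 higher of 21: RPA2 (0.53), the bypass polymerase gene POLH (0.38), ERCC3 (0.31) and MSH6 (0.43). CHAC1 (0.65) and TRIB3 (0.59), targets of the integrated stress response, and SHMT2 (0.32) were higher of 24 genes in that list. RAD51D lay below the negative control level in SKOV-3-EV cells and APAF1 at it.

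The remaining lists held few such genes. Of 15 epithelial-mesenchymal genes 3 were lower, CDH2, CDH1 and the transcription factor ZEB1 (-0.25), and TWIST2 was higher (0.62). CDH1 in both groups and TWIST2 in SKOV-3-EV cells lay below the negative control level. Of 24 interferon and antiviral sensing genes 1 was higher, STING1 (0.45), and 0 lower, and the list median was 0.29. That median includes many genes near background. CGAS, IFI44L, OAS2 and OASL, for example, lay below the negative control level in both groups. Of 16 autophagy genes GABARAPL1 (0.41) and ATG3 (0.35), both of the conjugation systems that build autophagosome membranes, were higher and ATG7 lower. CYP1B1, a cytochrome P450 induced by the aryl hydrocarbon receptor, was the 1 of 7 receptor targets that differed. It was higher in both treatments, by 0.44 under cisplatin and by 0.61 without it. Of 17 glycolysis genes HK2 (0.52) and PFKFB3 (0.58) were higher and PFKL (-0.41) lower, and of 20 lipid synthesis genes MVD (0.46) was higher.

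Of 17 YAP, SRF and focal adhesion genes 3 were lower (17.6%): ACTA2 (-0.50), MYL9 (-0.58) and VCL (-0.30), which encode an actin, a myosin light chain and vinculin. The higher one was AJUBA (0.45), and the list median was -0.14. CDH2, N-cadherin, of the epithelial-mesenchymal list, read 10.39, 10.14 and 9.86 in SKOV-3-EV and 9.30, 9.49 and 9.85 in SKOV-3-AA cells, a difference of -0.58 (adjusted p = 0.254). Among 15 PEA-15 partners 3 were lower, PEA15 itself and the kinases PRKCA (-0.63) and CAMK2D (-0.50), which belong to families that phosphorylate PEA-15. Of 13 measured ribosomal protein genes 0 differed at an unadjusted p under 0.05, and of 13 heat shock genes 0 did.

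Of 18 genes the study names 13 were measured; FLNA, TSTD3, ND6, LOC100287225 and the UGT1A gene were not analysed here. Apart from those described above, SP1 was at 0.40 (adjusted p = 0.405), MAVS at 0.37 (adjusted p = 0.411), GPRC5C at 0.29, TIPARP at 0.18, ELK1 at 0.13, ELFN2 at 0.09, RBM26 at -0.03, GTSF1L at -0.10 and PRKG1 at -0.24. None of these had an unadjusted p under 0.05. NAV3, a cytoskeleton-associated protein, was at 0.14 under cisplatin (adjusted p = 0.821) and at -0.89 in untreated cells, with signals of 3.98 to 4.77 under cisplatin. NAV3, PRKG1 and GTSF1L lay below the negative control level in both groups.

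The change of the SKOV-3-AA difference with cisplatin was ranked by unadjusted p among probe sets with a symbol and a mean above the median in some group. Apart from the inflammatory and ERK-responsive genes, the lowest p upwards was that of PTX3, a secreted pattern recognition protein (0.66 under cisplatin, -0.60 untreated). CTSE, FAM107B and the transcription factor HEY2 came next. PTX3 read 8.15, 8.41 and 8.31 in SKOV-3-EV and 9.12, 8.96 and 8.78 in SKOV-3-AA cells under cisplatin. CTSE differed by -0.80 in untreated cells and by 0.27 under cisplatin, where its arrays overlapped and both group means lay below the negative control level. Downwards the change had its lowest unadjusted p in DTWD2, with -0.91 and 0.41, then CD9, SLC25A26, a mitochondrial carrier of S-adenosylmethionine (-0.54 and 0.37), SPA17 and NKAIN4. Across all 21448 probe sets the treated and the untreated difference, which come from different arrays, had a Pearson correlation of 0.04 and a Spearman correlation of 0.03. This is across genes, which are not independent replicates.

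The share of lower genes was highest among the longest genes. The 12 lowest had a median genomic span of 379.4 kb, the 12 highest one of 73.0 kb, and all genes with a RefSeq span one of 25.9 kb. PARD3 spans 705.7 kb, TRHDE 583.5 kb, ADK 558.1 kb, SLC39A11 446.7 kb and CASK 408.6 kb, while COX7A1 (1.5 kb) and PEA15 (10.0 kb) are short. When the 17705 probe sets with a span were divided into 10 equal groups by it, the longest group (median 261.9 kb) had 16.1% lower and 3.05% higher at an unadjusted p under 0.05. It held 285 of the 1035 lower probe sets, so most of them lay in the other groups, and the shortest group too had more lower (5.99%) than higher (3.9%). In the shortest group this held only with dim probe sets included: at signals above the median of all, 3.82% were lower and 8.02% higher. Among the 804 probe sets of the longest group with such a signal, 25.2% were lower and 3.98% higher, with a median of -0.17. At the same signal the next longest group, with a median of 114.1 kb, was balanced at 8.28% lower and 8.19% higher, and in the group with a median of 30.8 kb 1.62% were lower and 14.3% higher. In untreated cells the longest group had 1.24% lower. The median difference between cisplatin and no drug in SKOV-3-EV cells was -0.73 in the longest group and 0.29 in the shortest. The signal of long minus short genes per array was -2.68, -2.66 and -2.41 with PEA-15AA and -2.37, -2.31 and -2.44 with the vector. The arrays overlapped, and a two-sided exact permutation test gave p = 0.2, where 3 against 3 arrays cannot go below 0.1. The rank correlation of span with the difference over all genes was -0.01, and the shares did not run in 1 direction along the span.

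**Figure D5:**
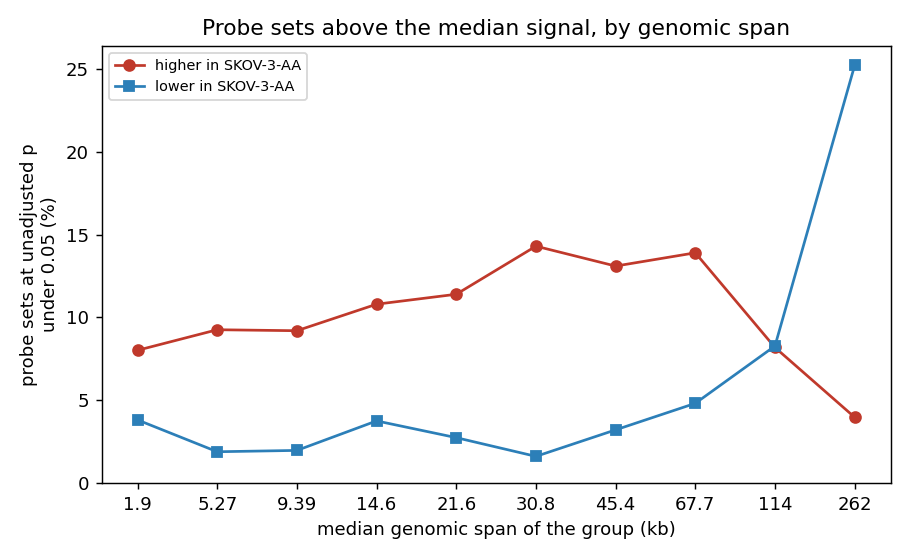
Share of probe sets with an unadjusted p under 0.05 (y axis, percent) that were higher (circles) or lower (squares) in SKOV-3-AA cells under cisplatin, by group of genomic span (x axis, median span in kb), for signals above the median. The share lower stays under 5% up to 67.7 kb, meets the share higher at 114.1 kb and reaches 25.2% in the longest genes.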

How the data were processed

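The deposited values are log2 signals, 1 for each probe set and array, made by the authors by summarization and normalization by RMA (SST-RMA) in Transcriptome Analysis Console. They were used with no further normalization. Each array was 1 sample. The sources used here do not name the genome build behind the probes. Of 24351 features, 2903 controls were left out. A probe table paired 17709 of the remaining 21448 probe sets with 1 symbol. The other 3739 had no symbol, or several, and were treated as having none. For the 20 symbols with several probe sets the brightest stood for the gene in lists. Genomic spans and promoter sequences come from RefSeq (GRCh38.p14), and coordinates belong to that build.

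The fit used limma (version 3.58.1, R version 4.3.3): 1 model of 6 group means over 18 arrays, with 12 residual and 5.47 prior degrees of freedom. The change of the SKOV-3-AA difference with cisplatin was tested as an interaction in the same model. For naming, it was ranked only among probe sets with a symbol and a mean above the median in some group. P-values were adjusted by Benjamini and Hochberg over 21448 probe sets, and the script was tested on simulated data. The number of arrays limits the precision. Named genes are those the study names, the 12 highest and 12 lowest among genes with an unadjusted p under 0.05, no overlap of arrays and a mean in the higher group above the median, all genes past the study's thresholds, up to 4 members per list by p, and 5 genes each way for the interaction; other list members were named after their values were seen, and so were the printed promoters. The 31 gene lists and the comparison were chosen with earlier results of these data known, and no list was tested as a set. Alternatives covered centring, quantile normalization, dim probe sets, trend and robust options, array weights, a replicate block, smaller models, 1 probe set per symbol and leaving out arrays. The withdrawal of both outlying SKOV-3-DD arrays, and the list counts under each setting, were chosen after seeing the data. Figures come from matplotlib (version 3.10.9, Python version 3.11.15).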

Additional observations from a re-analysis of the deposited data

How the results depend on the processing

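The count of 0 probe sets at an adjusted p under 0.05 became 2 with quantile normalization (ATG7 and CD9), 1 without probe sets under the median signal (CD9), 1 with the trend and robust options (CD9), 154 with array weights (whose estimate stopped before its convergence tolerance was met) and 341 without both outlying SKOV-3-DD cisplatin arrays. Leaving out 1 array gave 0 to 2, with 2 (ABHD17C and PTPRG) without SKOV-3-EV replicate 3. The 30 at the study's criteria ranged from 30 to 67 over arrays left out. The 2671 at an unadjusted p under 0.05 ranged from 2009 to 2886, and were 1671 with only the 9 cisplatin arrays in the model. The share of higher calls was 52.6%, 65.3% without probe sets under the median signal and 48.4% after quantile normalization.

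Of the list counts, the 17 histone genes ranged from 9 to 23 without 1 array and were 9 with only the cisplatin arrays. The 10 G2/M genes ranged from 5 to 11 and were 4 with only the cisplatin arrays and 16 without the outlying SKOV-3-DD arrays. The 9 G1/S genes ranged from 5 to 11 and were 5 after quantile normalization and 14 with array weights. The 4 NF-kB genes ranged from 3 to 8 and were 7 with the trend and robust options, 8 with array weights and 8 without the outlying SKOV-3-DD arrays. The 4 Wnt genes ranged from 2 to 5 and were 2 without probe sets under the median signal and 2 with only the cisplatin arrays. The 6 lower metallothionein and platinum transport genes ranged from 2 to 4 and were 3 with only the arrays compared and 2 with only the cisplatin arrays. The causes were not tested.

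Of the named genes, RBM26 (-0.0792 to 0.0399), GTSF1L (-0.296 to 0.091), NAV3 (-0.0526 to 0.247) and ELFN2 (-0.0421 to 0.162) changed direction without 1 array, and all 4 lay near 0. Arrays with the same replicate number deviated together only weakly (correlations of 0.0033, 0.0376 and 0.0725), so the numbers were not taken as pairs; with the replicate number as a block the counts were 0 at an adjusted p under 0.05, 30 at the study's criteria and 2812 at an unadjusted p under 0.05.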
